A study of Homo sapiens with 6 samples.

Results

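Cells answer growth factors through receptor tyrosine kinases, and the same signal switches on inhibitors that damp it. The 10 genes described here belong to that loop. They are the Sprouty genes SPRY1, SPRY2 and SPRY4, the Sprouty-related genes SPRED1 and SPRED2, the receptor inhibitors ERRFI1 and PHLDA1, and the transcription factor genes ETV1, ETV4 and ETV5. They were taken from the expression table by gene symbol, with no cut on their values, and are 10 of the 58735 genes it holds.

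RNA was sequenced from HEY cells, a human ovarian cancer line grown with serum, in 3 libraries of cells carrying a CSGALNACT2 overexpression plasmid (oeCSGALNACT2) and 3 of cells carrying the empty vector (Vector). CSGALNACT2 encodes an N-acetylgalactosaminyltransferase that acts in the synthesis of chondroitin sulfate, the sugar chain of many cell surface and matrix proteoglycans. According to the study's methods the gene was cloned at full length into a pLVX-IRES-Puro vector. They also describe infection with lentivirus and selection with puromycin. A figure legend calls the overexpression in the sequenced HEY cells stable, while the sequencing methods say that the cells were transfected. The sources do not say whether the cells were a clone or a pool, or whether separate cultures were used for each library, so the p-values refer to the spread among these 6 libraries alone, and that spread may be technical. The sample titles name CSGALNACT1 and the descriptions CSGALNACT2. In the oeCSGALNACT2 libraries CSGALNACT2 stood at 466 ± 63.6 FPKM, against 10.5 ± 4.13 FPKM in the Vector libraries (SD, n = 3 each), and CSGALNACT1 stood at 0.0955 ± 0.0430 and 0.183 ± 0.115 FPKM. FPKM counts fragments relative to gene length and library size.

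Sprouty proteins act below the receptors, where they hold back the relay to RAS and ERK, and SPRY2 also binds the adaptor GRB2 and the ubiquitin ligase CBL. SPRED proteins carry neurofibromin to the membrane, where it turns RAS off. ERRFI1, also called MIG6, binds the kinase domain of EGFR family receptors and blocks it, while PHLDA1, a small protein with a pleckstrin homology-like domain, has been described as an inhibitor of ERBB receptor signalling. ETV1, ETV4 and ETV5 form the PEA3 group of ETS transcription factors, whose genes are switched on by ERK signalling and kept down by the repressor CIC when that signal is low.

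The libraries held 15628834 to 18186682 reads, recovered from the FPKM values. Replicate 1 stood apart in both groups. Across genes, the Pearson correlation of replicates 2 and 3 was 0.9855 in oeCSGALNACT2 and 0.9905 in Vector. Replicate 1 correlated at 0.8872 and 0.8935 with the other oeCSGALNACT2 libraries and at 0.8921 and 0.9130 with the other Vector libraries. The replicate 1 libraries of both groups correlated at 0.9301 with each other, so each was closer to the other than to its own group. The share of reads on mitochondrial genes was 4.60% to 4.82% in oeCSGALNACT2 and 2.77% to 3.61% in Vector, and its part in the results was not tested. Of 9 markers of epithelial ovarian carcinoma, 5 had a mean of at least 1 FPKM, among them KRT8, KRT18 and PAX8, while CDH1 and MUC16 were at or near 0. The summed level of these 9 markers was 332 to 572 FPKM in oeCSGALNACT2 and 177 to 322 FPKM in Vector. Of 13 markers of other cell types, 3 had a mean of at least 1 FPKM, the T cell gene CD3E was at 0 in all libraries, and the sums were 11.6 to 20.7 FPKM in oeCSGALNACT2 and 25.0 to 38.3 FPKM in Vector. CDH5, an endothelial cadherin gene in this list, stood at 6.19 to 10.2 FPKM in oeCSGALNACT2 and 19.5 to 30.5 FPKM in Vector. The means of the other markers above the filter lay the other way, with COL1A1 at 4.01 and ACTA2 at 3.41 FPKM in oeCSGALNACT2, against 3.31 and 2.23 FPKM in Vector. The part of these markers in the results was not tested.

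Mean FPKM was lower in oeCSGALNACT2 than in Vector for all 10 genes. SPRY2, ERRFI1 and PHLDA1 fell, by 2.66-fold to 4.95-fold on mean FPKM, and no member rose. The test was limma on log2(FPKM + 1), a scale that understates the change of genes with low values, over the 11479 genes with a mean of at least 1 FPKM, with p-values adjusted by the Benjamini-Hochberg method over all of them and a threshold of 0.05. Of the members, 9 were tested and 3 of these were called lower, against 0.845% of all genes tested, and 0 were called higher, against 0.505%. The members were chosen with earlier results of these data known, so this and later contrasts of members with all genes are descriptions. SPRY1 was below the filter. At an unadjusted limma p under 0.05, 7 of the 9 were lower and 0 higher, against 9.26% and 7.8% of all genes tested. On the reads recovered from the FPKM, edgeR called the same 3 of 10 members lower and 0 higher. The shares of its genes were 0.552% and 0.419%. DESeq2 called the same 3 and 0, against 1.49% and 1.11% of the 28102 genes with any read. That base is wider than those of limma and edgeR, so its shares are not comparable with theirs. In bulk RNA, fewer cells of a type and less RNA per cell cannot be told apart.

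The promoters of 4 members are shown here. ERRFI1 and SPRY2 carried the largest differences of the called members, and SPRY1 was the scarcest member. ETV1 was picked for a match to a CIC motif, and of its promoters the one with the match is shown. ETV4 and ETV5 had no promoter to search. Each line gives the 250 bases before a RefSeq start site (GRCh38.p14), 5′ to 3′ on the strand of the gene, and each start site lies at or upstream of the gene's start in the expression table. Capitals mark GGAA, the core that ETS factors bind, on either strand, so that it also reads TTCC, and the CIC motif letters TGAATGAA or TGAATGGA.
ERRFI1, chr1:8026310-8026559, minus strand: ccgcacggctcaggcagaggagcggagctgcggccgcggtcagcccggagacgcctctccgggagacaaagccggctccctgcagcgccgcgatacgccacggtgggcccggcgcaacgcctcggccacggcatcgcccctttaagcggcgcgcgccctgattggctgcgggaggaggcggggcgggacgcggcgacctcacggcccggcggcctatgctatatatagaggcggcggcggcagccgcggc
SPRY2, chr13:80341127-80341376, minus strand: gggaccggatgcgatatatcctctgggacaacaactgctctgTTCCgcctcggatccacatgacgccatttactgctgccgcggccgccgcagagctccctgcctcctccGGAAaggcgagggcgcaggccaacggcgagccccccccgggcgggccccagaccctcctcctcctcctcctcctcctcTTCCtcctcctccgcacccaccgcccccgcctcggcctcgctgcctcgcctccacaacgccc
ETV1, chr7:13991426-13991675, minus strand: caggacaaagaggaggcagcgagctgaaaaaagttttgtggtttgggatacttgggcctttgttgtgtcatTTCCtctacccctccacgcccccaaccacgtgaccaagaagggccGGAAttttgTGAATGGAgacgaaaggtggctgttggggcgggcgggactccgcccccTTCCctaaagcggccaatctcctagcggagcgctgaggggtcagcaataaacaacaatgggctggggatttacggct
SPRY1, chr4:123396545-123396794, plus strand: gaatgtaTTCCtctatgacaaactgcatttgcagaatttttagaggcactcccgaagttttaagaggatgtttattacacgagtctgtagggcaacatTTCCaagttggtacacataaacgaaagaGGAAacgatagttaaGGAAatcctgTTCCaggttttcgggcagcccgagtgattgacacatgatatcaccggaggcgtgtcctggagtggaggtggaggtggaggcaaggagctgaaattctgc
The ERRFI1 window had no GGAA on either strand and 75.2% G and C, and it held TATATA at 31 bases before the start site, with an overlapping copy at 29 bases before it. The SPRY2 window held 3 cores and the ETV1 window 3, and the SPRY1 window held 5 with 45.6% G and C. In ETV1, TGAATGGA lay from 125 to 118 bases before the start site and did not overlap a core.

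RefSeq entries were found for 8 of the 10 members, with 17 promoters in all, and ETV4 and ETV5 had none in the table. Of these 17, 16 held GGAA, against 92.7% of the 35116 human promoters of the same length. TGAATGGA was in 1 member promoter and in 0.832% of all promoters, and TGAATGAA was in 0 and in 1.4%. The shorter site of the cAMP response element, TGACG, was in 5 member promoters and in 21.2% of all. TATATA was in 1 and in 3.73%. The AP-1 letters TGANTCA, the full cAMP response element TGACGTCA, which contains the shorter one, the extended ETS letters CCGGAAGT, which contain the core, and the serum response CArG box were in none of the 17, against 6.57%, 1.65%, 3.42% and 1.16% of all promoters. These counts are of letters on both strands. The promoters of 1 gene overlap in part, so that a site in the overlap is counted in each. This holds for a TGACG site of ETV1.

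**Figure D1:**
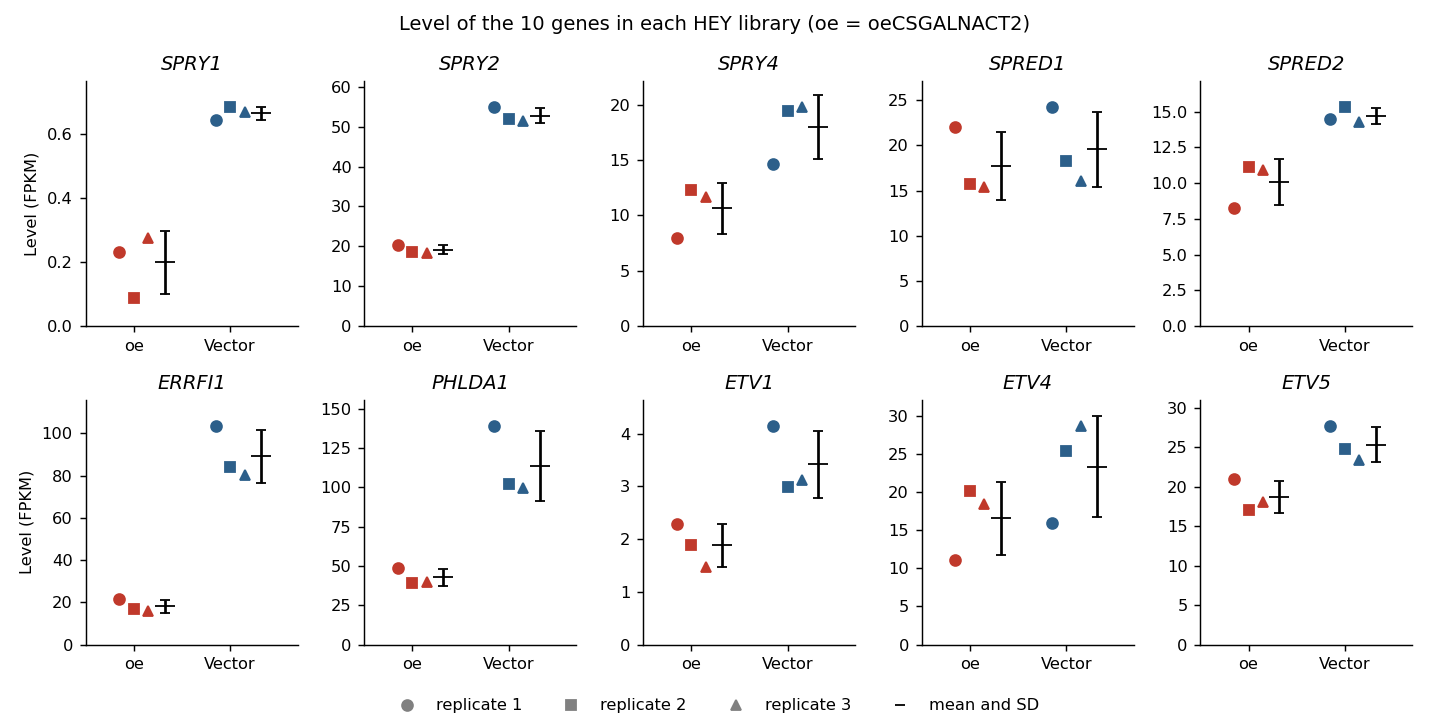
FPKM of the 10 members in each library, oeCSGALNACT2 left of Vector in each panel, with 1 symbol for each replicate number and the group mean and SD beside the points. The groups are apart for 8 genes and overlap for SPRED1 and ETV4.

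Of the Sprouty genes, SPRY2 made up most of the RNA and fell. It lies on chromosome 13 (chr13:80335976-80340951, minus strand, GRCh38) and had 20.4, 18.6 and 18.3 FPKM in oeCSGALNACT2, against 54.9, 52.0 and 51.4 FPKM in Vector. All 3 oeCSGALNACT2 libraries lay far below all 3 Vector libraries, and within a group the libraries were close. The means were 19.1 ± 1.16 and 52.8 ± 1.87 FPKM (SD, n = 3 each), which is 2.76-fold lower. The log2 fold change was −1.42 (SE 0.15, limma adjusted p = 0.0166), the 87th lowest of all genes tested. On the recovered reads the adjusted p was 0.0237 with edgeR and 4.91e-07 with DESeq2. Leaving out 1 library moved the adjusted p of SPRY2 more than its size: it was 0.0312 without oeCSGALNACT2 replicate 1 and 0.0407 without Vector replicate 1, but 0.148 and 0.119 without oeCSGALNACT2 replicates 2 and 3, and 0.194 and 0.132 without Vector replicates 2 and 3, with the fold change between −1.47 and −1.39 throughout.

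SPRY4 (chr5:142310427-142326455, minus strand) is the Sprouty gene next in level. It had 7.99, 12.3 and 11.7 FPKM in oeCSGALNACT2, against 14.6, 19.5 and 19.8 FPKM in Vector. The groups did not overlap, and replicate 1 was the lowest library of each. The log2 fold change was −0.71 (95% interval −1.25 to −0.17) and did not pass the test (limma adjusted p = 0.183). When the replicate number was added to the model as a block, which takes out what libraries of the same number share, SPRY4 passed (limma adjusted p = 0.00167).

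SPRY1 (chr4:123396795-123403760, plus strand) was scarce, at 0.232, 0.0889 and 0.276 FPKM in oeCSGALNACT2 and 0.644, 0.685 and 0.671 FPKM in Vector. These values rest on 15, 6 and 20 reads in oeCSGALNACT2 and 42, 49 and 45 reads in Vector, so every oeCSGALNACT2 library was below every Vector library. The sums were 41 reads (exact 95% Poisson interval 29.4 to 55.6) and 136 reads (114 to 161), and these intervals cover counting error only. SPRY1 did not pass edgeR on the reads (log2 fold change −1.70, adjusted p = 0.146) or DESeq2 (adjusted p = 0.0691), and passed edgeR with the replicate block (adjusted p = 0.0168). Summed over the 3 Sprouty genes, the level was 30.0 ± 1.17 FPKM in oeCSGALNACT2 and 71.4 ± 1.08 FPKM in Vector (SD, n = 3 each). SPRY2 stood at 1.88 ± 0.587 times the level of SPRY4 in oeCSGALNACT2 and at 3.01 ± 0.649 times in Vector, both as ratios of FPKM (SD, n = 3 each), with replicate 1 the highest library of each group.

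Neither SPRED gene passed the test without the block. SPRED1 (chr15:38252326-38357249, plus strand), the gene mutated in Legius syndrome, had 22.1, 15.7 and 15.4 FPKM in oeCSGALNACT2 and 24.2, 18.3 and 16.1 FPKM in Vector. The groups overlapped, since replicate 1 of oeCSGALNACT2 lay above replicates 2 and 3 of Vector. The log2 fold change of −0.13 had a 95% interval of −0.68 to 0.42 (limma adjusted p = 0.831), which leaves room for a difference in either direction. Without Vector replicate 1 it was 0.025 (limma adjusted p = 0.972). With the replicate block SPRED1 was the tested member that did not pass (adjusted p = 0.140, interval −0.29 to 0.02).

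SPRED2 (chr2:65310851-65432637, minus strand) had 8.22, 11.1 and 10.9 FPKM in oeCSGALNACT2, against 14.5, 15.3 and 14.3 FPKM in Vector. The groups did not overlap, and the lowest value belonged to replicate 1 of oeCSGALNACT2. The log2 fold change was −0.51 (95% interval −0.92 to −0.10, limma adjusted p = 0.201), and with the replicate block the adjusted p was 0.0103. The 2 SPRED genes together stood at 27.8 ± 2.17 FPKM in oeCSGALNACT2 and 34.2 ± 4.19 FPKM in Vector (SD, n = 3 each).

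ERRFI1 had the largest difference of the tested members. The gene (chr1:8004404-8026308, minus strand) had 21.4, 16.7 and 15.9 FPKM in oeCSGALNACT2, against 104, 84.1 and 80.2 FPKM in Vector. The groups were far apart, and replicate 1 was the highest library in both. The means of 18.0 ± 2.95 and 89.3 ± 12.6 FPKM (SD, n = 3 each) differed 4.95-fold, with a log2 fold change of −2.25 (SE 0.19, limma adjusted p = 0.0104), the 16th lowest of all genes tested. The adjusted p was 0.0105 with edgeR and 3.86e-14 with DESeq2 on the recovered reads. The call held without oeCSGALNACT2 replicate 1 (limma adjusted p = 0.0150) and without Vector replicate 1 (0.0273), and was lost without oeCSGALNACT2 replicate 2 (0.1002) or 3 (0.0853) and without Vector replicate 2 (0.0944) or 3 (0.0709), while the fold change of ERRFI1 stayed between −2.37 and −2.14.

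PHLDA1 (chr12:76025447-76033932, minus strand) was the most abundant member in both groups. It had 49.0, 39.2 and 40.0 FPKM in oeCSGALNACT2, against 139, 102 and 99.5 FPKM in Vector. Again the groups were apart and replicate 1 was the highest of each. The means were 42.7 ± 5.43 and 114 ± 22.3 FPKM (SD, n = 3 each), 2.66-fold lower, and the log2 fold change was −1.38 (SE 0.20, limma adjusted p = 0.0379). PHLDA1 was nearest to the threshold of the called members: its adjusted p was 0.0416 with edgeR and 0.0827 with limma without the filter on low values. Of the 6 fits that left out 1 library it passed in 1, without oeCSGALNACT2 replicate 1 (0.0477), and its limma adjusted p was 0.059 without Vector replicate 1, 0.196 and 0.208 without oeCSGALNACT2 replicates 2 and 3, and 0.216 and 0.167 without Vector replicates 2 and 3.

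The proportion of the receptor inhibitors to each other was lower in oeCSGALNACT2. ERRFI1 stood at 0.421 ± 0.0200 times the FPKM of PHLDA1 in oeCSGALNACT2 and at 0.791 ± 0.0416 times in Vector (SD, n = 3 each), and the ratios of the groups did not overlap. The smallest two-sided p that an exact permutation test of 3 against 3 libraries can give is 0.1, and the ratio is given as a description. Together the 2 genes stood at 60.8 ± 8.33 FPKM in oeCSGALNACT2 and 203 ± 34.8 FPKM in Vector (SD, n = 3 each), the largest part of the summed level of all 10 members, which was 156 ± 7.07 and 361 ± 34.0 FPKM.

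**Figure D2:**
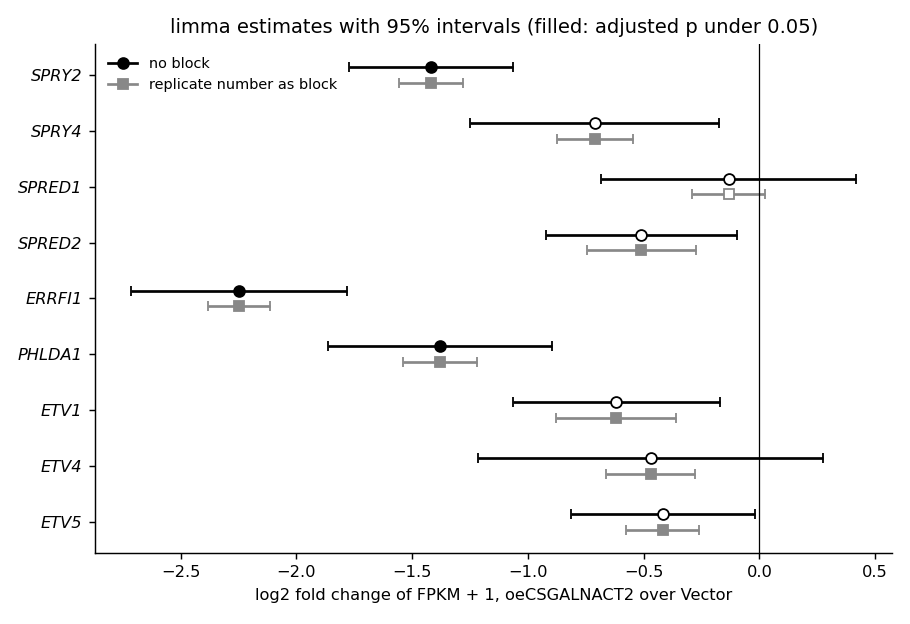
Log2 fold change of FPKM + 1 with its 95% interval for the 9 members tested, oeCSGALNACT2 over Vector, without and with the replicate block. The intervals shrink with the block, while the point values stay where they were, from −2.25 for ERRFI1 to −0.13 for SPRED1.

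No ETV gene passed the test without the block. ETV5 (chr3:186046308-186110318, minus strand) had 21.0, 17.0 and 18.1 FPKM in oeCSGALNACT2, against 27.8, 24.8 and 23.4 FPKM in Vector. The groups did not overlap, with replicate 1 the highest in each. Its log2 fold change was −0.42 (95% interval −0.82 to −0.02, limma adjusted p = 0.271, and 0.00580 with the replicate block).

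ETV4 (chr17:43527844-43579620, minus strand) had 11.1, 20.2 and 18.4 FPKM in oeCSGALNACT2 and 15.9, 25.3 and 28.7 FPKM in Vector. The groups overlapped because replicate 1 was low in both. The log2 fold change was −0.47 with a wide 95% interval of −1.22 to 0.28 (limma adjusted p = 0.510). With the replicate block the adjusted p of ETV4 was 0.00722.

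ETV1 (chr7:13891228-13991425, minus strand) was the scarcest ETV gene, at 2.28, 1.88 and 1.48 FPKM in oeCSGALNACT2 and 4.15, 2.98 and 3.13 FPKM in Vector. Every oeCSGALNACT2 library was below every Vector library. The log2 fold change was −0.62 on log2(FPKM + 1) (95% interval −1.06 to −0.17, limma adjusted p = 0.166, and 0.00764 with the replicate block). On the recovered reads, with no pseudocount of this kind, edgeR gave −0.83 (adjusted p = 0.163). Summed, the ETV genes stood at 37.2 ± 2.44 FPKM in oeCSGALNACT2 and 52.1 ± 3.81 FPKM in Vector (SD, n = 3 each), and ETV4 stood at 0.910 ± 0.341 and 0.940 ± 0.334 times the FPKM of ETV5.

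**Figure D3:**
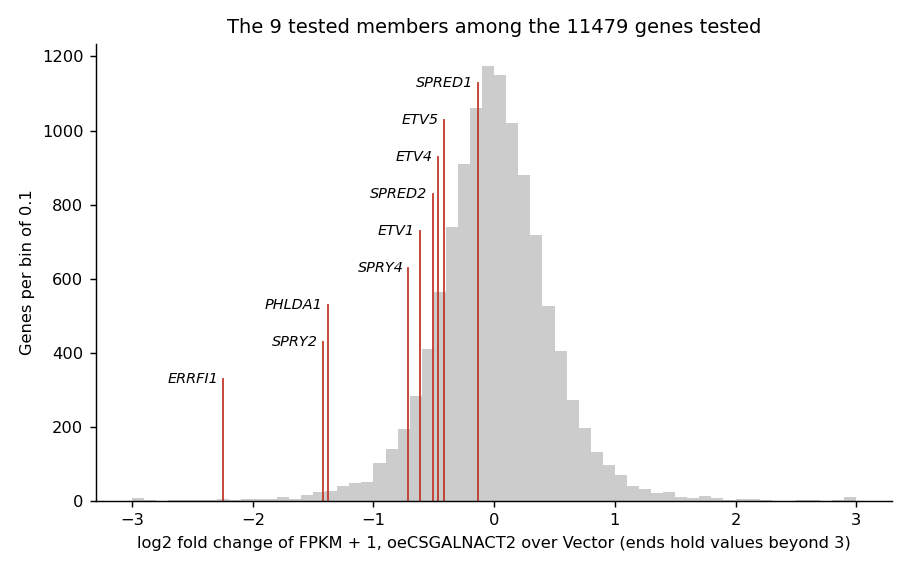
Distribution of the log2 fold change of FPKM + 1, oeCSGALNACT2 over Vector, over the 11479 genes tested (grey, genes per bin of 0.1), with the 9 tested members as red lines. All 9 lie below 0, and ERRFI1, SPRY2 and PHLDA1 lie in the lower tail.

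The median log2 fold change of the 9 tested members was −0.62, and the median over all genes tested was −0.01. All of the 9 were below 0, as were 50.8% of all genes tested. Without overlap between the groups, 8 of the 10 members were lower in every oeCSGALNACT2 library. SPRY1 was one of them, and the other 7 were among the 9 tested, against 12.8% of all genes tested. Between libraries of the same number, all 10 members were lower in oeCSGALNACT2 in 3 of 3 pairs, against 35.6% of all genes tested. With the replicate block 8 of the 9 tested members passed and were lower, but so did 22.5% of all genes tested, and in replicates 2 and 3 alone 8 of 9 passed, against 21.4%. edgeR with the replicate block called 9 of 10 members lower and 0 higher, SPRY1 among the 9, against 20.1% and 22.2% of all its genes.

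The libraries numbered 1 differed from the others in a way that was much alike in oeCSGALNACT2 and Vector. SPRY4 in replicate 1 stood at 0.668 times the mean of replicates 2 and 3 in oeCSGALNACT2 and at 0.745 times in Vector, and ETV4 at 0.576 and 0.590 times. The opposite held for SPRED1, at 1.42 and 1.41 times, for ETV1, at 1.36 and 1.36 times, and for ERRFI1, at 1.31 and 1.26 times. SPRED2 was uneven, at 0.746 times in oeCSGALNACT2 and 0.978 times in Vector.

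Taken pair by pair, every member was lower in oeCSGALNACT2. The log2 ratio of FPKM, with no pseudocount, was −2.28, −2.33 and −2.33 for ERRFI1 in pairs 1, 2 and 3. For SPRY2 it was −1.42, −1.48 and −1.49, and for PHLDA1 it was −1.51, −1.38 and −1.31. Of the other members, SPRY4 lay between −0.87 and −0.67 and SPRED2 between −0.81 and −0.39. ETV1 lay between −1.08 and −0.67, ETV4 between −0.64 and −0.33, ETV5 between −0.54 and −0.37 and SPRED1 between −0.22 and −0.06. SPRY1 spread most, between −2.95 and −1.28, on its few reads.

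**Figure D4:**
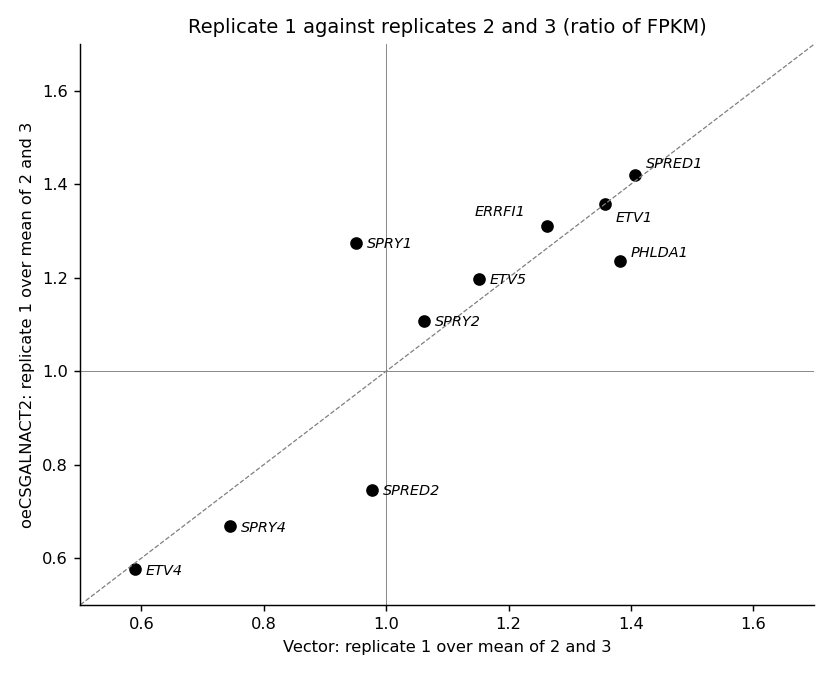
FPKM of each member in replicate 1 over its mean in replicates 2 and 3, for oeCSGALNACT2 on the y axis and Vector on the x axis, with a dashed line where both are equal. SPRY4, ETV4 and SPRED2 are below 1 in both groups, SPRED1, ETV1, ERRFI1, PHLDA1, ETV5 and SPRY2 are above 1 in both, and SPRY1 is above 1 in oeCSGALNACT2 alone.

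The order of the members by mean FPKM was not the same in the groups. In oeCSGALNACT2 it was PHLDA1, SPRY2, ETV5, ERRFI1, SPRED1, ETV4, SPRY4, SPRED2, ETV1 and SPRY1. There the libraries of SPRY2 through SPRED2 overlapped from each gene to its neighbour, and only PHLDA1 at the top and ETV1 and SPRY1 at the bottom were apart from the gene next to them. In Vector it was PHLDA1, ERRFI1, SPRY2, ETV5, ETV4, SPRED1, SPRY4, SPRED2, ETV1 and SPRY1, and ERRFI1 and SPRY2 were each apart from the gene below. ERRFI1 was thus 4th in oeCSGALNACT2 and 2nd in Vector.

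Some members share ground with other genes, and the sources used here do not say whether reads were counted by strand. ETV4 shares 68 exon bases with DHX8, an RNA helicase gene on the opposite strand, which had 7.12, 10.9 and 10.1 FPKM in oeCSGALNACT2 and 6.81, 8.31 and 8.47 FPKM in Vector. ETV5 shares 164 exon bases with DGKG on the same strand, which did not exceed 0.407 FPKM. ERRFI1 shares 155 exon bases with an antisense gene of at most 15 reads in any library. PHLDA1, of 8069 exon bases, shares 553 and 779 with the antisense genes AC011611.3 and AC011611.4, of at most 2 reads in any library. The antisense gene SPRY4-AS1 shares none with SPRY4. The values of ETV4, ETV5, ERRFI1 and PHLDA1 are uncertain to the extent that reads of these shared bases were split or dropped.

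The genes whose log2(FPKM + 1) followed a member most closely over the 6 libraries are given as a description, since a group difference and the replicate 1 difference both enter the Pearson correlation. For SPRY2 it was TXNIP (r = 0.9995), with 8.52, 5.82 and 5.94 FPKM in oeCSGALNACT2 and 102, 88.9 and 80.8 FPKM in Vector. For ERRFI1 it was NEDD4L, for PHLDA1 TMEM209, for SPRED1 TRIM13, for ETV1 APLP2 and for ETV4 GTF2IRD1, each with r of at least 0.9989. SPRED2 was followed by EIF4G3 (r = 0.994) and ETV5 by PPTC7 (r = 0.997). Among the members themselves SPRY2 and ERRFI1 moved together (r = 0.997), as did ERRFI1 and PHLDA1 (r = 0.992), while SPRED1 and ETV4 ran opposite ways over the 6 libraries (r = −0.636).

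The rest of the pathway was followed in 7 lists of genes, chosen with earlier results of these data known. Listed genes that are named without having passed the test were chosen after their values were seen. The closest relatives, SPRED3, PHLDA2 and PHLDA3, gave no call among 3 tested of 4 listed. PHLDA3, a member of the same pleckstrin homology-like family, had 10.0, 31.9 and 36.1 FPKM in oeCSGALNACT2 and 5.93, 12.1 and 16.7 FPKM in Vector (log2 fold change 1.02, limma adjusted p = 0.421). It passed with the replicate block (adjusted p = 0.00366). None of the 21 partners of the SPRY, SPRED and ERRFI1 proteins was called by limma or edgeR, with 2 higher and 5 lower at an unadjusted limma p under 0.05, against 7.8% and 9.26% of all genes tested. Among these, CBL, the ubiquitin ligase that SPRY2 binds, averaged 14.2 ± 2.73 FPKM in oeCSGALNACT2 and 23.0 ± 1.60 FPKM in Vector (SD, n = 3 each, log2 fold change −0.67, limma adjusted p = 0.149). NF1, the neurofibromin that SPRED proteins carry, averaged 4.83 ± 0.550 and 6.49 ± 0.313 FPKM (limma adjusted p = 0.284). CAV1, the gene of caveolin-1, lay the other way and averaged 159 ± 27.6 FPKM in oeCSGALNACT2 and 104 ± 15.9 FPKM in Vector (limma adjusted p = 0.197), as did the adaptor gene CRK, at 48.0 ± 4.57 and 33.9 ± 5.10 FPKM (limma adjusted p = 0.231). CBL, NF1, CAV1 and CRK, named after their values were seen, passed with the replicate block (limma adjusted p = 0.00328 for CBL, 0.0152 for NF1, 0.00182 for CAV1 and 0.00328 for CRK). Of all 21 partners, limma with the block called 6 higher and 5 lower, against 21.2% and 22.5% of all genes tested.

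Of 11 other feedback inhibitors tested, limma without the block called DUSP1 and DUSP5 lower and none higher. The shares of all genes tested were 0.845% lower and 0.505% higher. DUSP1, a nuclear phosphatase of MAP kinases, averaged 22.1 ± 1.27 FPKM in oeCSGALNACT2 and 119 ± 23.5 FPKM in Vector (SD, n = 3 each, log2 fold change −2.36, limma adjusted p = 0.00973). DUSP5, a nuclear phosphatase of ERK, averaged 25.4 ± 4.71 and 74.6 ± 13.3 FPKM (log2 fold change −1.52, limma adjusted p = 0.0380). DUSP6, the cytoplasmic phosphatase of ERK, averaged 11.2 ± 2.00 and 29.3 ± 6.63 FPKM and did not pass (limma adjusted p = 0.0543, and 0.000759 with the replicate block). The median log2 fold change of the list was −0.25, and over all genes tested it was −0.01. DUSP1 lost its call without replicate 2 or 3 of oeCSGALNACT2 (limma adjusted p = 0.0837 and 0.0853) or of Vector (0.0944 and 0.0709). DUSP5 lost it without any 1 library, at limma adjusted p between 0.0501 and 0.238.

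Of 14 other ERK target genes tested, limma without the block called EGR1 and HBEGF lower and none higher. Over all genes tested 0.845% were called lower and 0.505% higher. The median log2 fold change of the list was −0.61, against −0.01 over all genes tested. EGR1, an immediate early transcription factor, had 0, 0.468 and 0.349 FPKM in oeCSGALNACT2 and 15.2, 22.4 and 20.7 FPKM in Vector (limma adjusted p = 0.00302). The call of EGR1 held without any 1 library (limma adjusted p between 0.00713 and 0.0437). HBEGF, a ligand of EGFR, had 9.59, 7.86 and 7.50 FPKM in oeCSGALNACT2 and 28.3, 25.0 and 26.4 FPKM in Vector (log2 fold change −1.57, limma adjusted p = 0.0166). HBEGF lost its call without replicate 2 or 3 of oeCSGALNACT2 (0.148 and 0.114) or of Vector (0.160 and 0.132). CCND1, which encodes cyclin D1, had the higher mean in oeCSGALNACT2 and averaged 275 ± 53.5 FPKM there and 164 ± 12.5 FPKM in Vector (SD, n = 3 each, log2 fold change 0.73, limma adjusted p = 0.131, and 0.00295 with the replicate block).

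Upstream of the members, none of 15 receptor tyrosine kinases tested of 30 listed was called by limma or edgeR, with 2 lower and 0 higher at an unadjusted limma p under 0.05, against 9.26% and 7.8% of all genes tested. EGFR, the receptor that ERRFI1 inhibits, had 39.2, 61.3 and 57.4 FPKM in oeCSGALNACT2 and 71.9, 90.5 and 87.3 FPKM in Vector, with no overlap (log2 fold change −0.67, limma adjusted p = 0.200, and 0.00300 with the replicate block). DDR2, a collagen receptor, averaged 15.4 ± 1.20 and 30.1 ± 2.86 FPKM (SD, n = 3 each, log2 fold change −0.92, limma adjusted p = 0.0544, and 0.000789 with the replicate block). None of 8 regulators of the ETV genes was called by limma or edgeR, and 0 of them had an unadjusted limma p under 0.05. CIC, their repressor, had 4.35, 16.7 and 14.3 FPKM in oeCSGALNACT2 and 2.57, 8.58 and 9.63 FPKM in Vector, and replicate 1 was the lowest of both groups (limma adjusted p = 0.643, and 0.00458 with the replicate block). COP1, the ubiquitin ligase component that marks ETV proteins for breakdown, averaged 10.1 ± 1.19 and 11.1 ± 2.90 FPKM (limma adjusted p = 0.876).

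None of 13 other ETS factors tested was called by limma or edgeR, with 5 lower and 0 higher at an unadjusted limma p under 0.05, against 9.26% and 7.8% of all genes tested. ETS1, a founding member of the ETS family, averaged 109 ± 7.36 FPKM in oeCSGALNACT2 and 180 ± 22.1 FPKM in Vector (SD, n = 3 each, log2 fold change −0.72, limma adjusted p = 0.0929). It passed with the replicate block (adjusted p = 0.00135). With that block 1 of the 13 was called higher and 8 lower, and for the receptors it was 1 and 6, for the other ERK targets 1 and 9, for the other feedback inhibitors 2 and 6, for the partners 6 and 5 and for the ETV regulators 2 and 0. These counts stand against 21.2% higher and 22.5% lower of all genes tested. DUSP4 and DUSP6, EPHA2 and EPHA4, and ELK1 each stand in 2 lists.

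**Figure D5:**
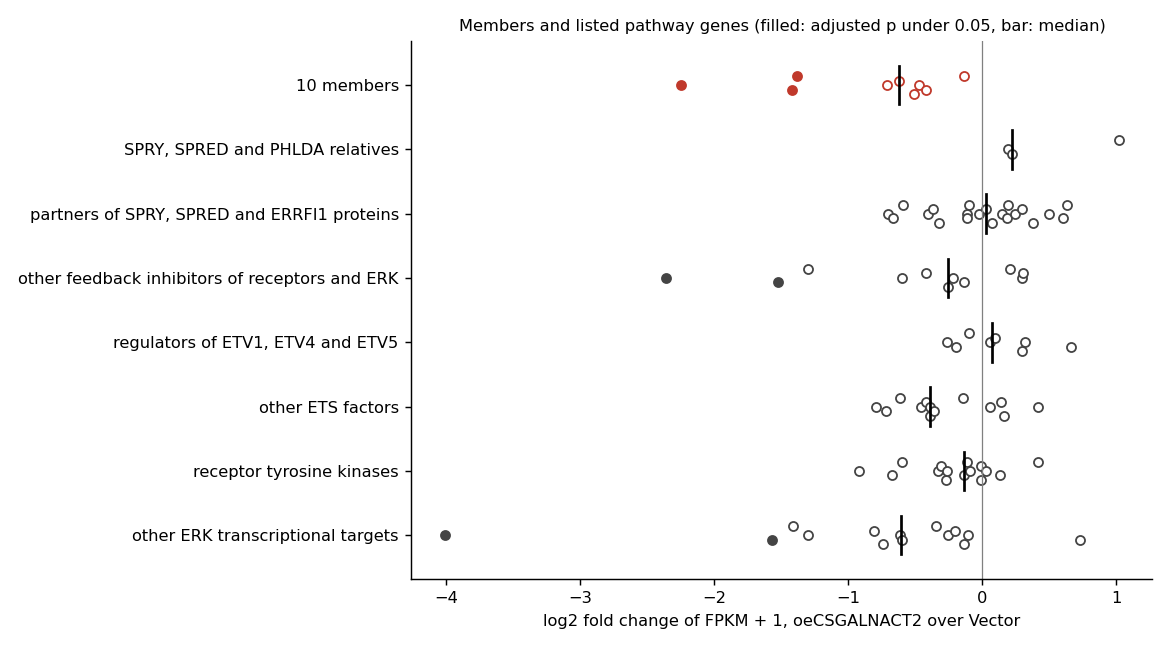
Log2 fold change of FPKM + 1, oeCSGALNACT2 over Vector, for each tested gene of the members and of the pathway lists, with filled points for genes past the limma threshold and a line at the median of each list. The medians run from −0.62 for the members to 0.22 for their closest relatives.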

How the data were processed

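Total RNA of HEY cells was extracted with TRIzol and sequenced after library preparation with a SMARTER mRNA kit. The aligner and counter were not given in the sources used here. Processing notes of the submitters list the build mm10, a mouse genome, but all 58735 genes of the table lie at the chromosome, start and end of human GENCODE 29 on GRCh38, whose coordinates are given. The authors deposited FPKM values per gene and whole read counts per gene. Only 1310 genes stand in the count table used here, and the main test was run on FPKM. Whole reads were recovered from the FPKM: 100% of values above 0 came out whole within 0.01, and all 1310 genes equalled the counts. A further table deposited by the authors repeats the same FPKM with group means and was not used.

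limma 3.58.1 (R 4.3.3) was fitted with a trend on the mean to log2(FPKM + 1) of the 6 libraries, for genes with a mean of at least 1 FPKM. edgeR 4.0.16 called 60 genes higher and 79 lower on the recovered reads, and DESeq2 1.42.0 was a further alternative. Fits were tested on simulated data. These had no replicate 1 difference, so they do not show how the fits handle it. Other alternatives were a pseudocount of 0.1, no filter, protein-coding genes, DESeq2 size factors, the replicate block, replicates 2 and 3 alone and each library left out. The numbers are the labels' and mark no stated shared day or culture. Deviations from the group means correlated at 0.8098, 0.6315 and 0.6861 between libraries of the same number, each above 0.1. Across numbers, oeCSGALNACT2 replicate 2 with Vector replicate 3 and oeCSGALNACT2 replicate 3 with Vector replicate 2 were also above 0.1, at 0.6823 and 0.5896. Deviations cancel out within a group, so a replicate 1 apart in both groups can give such values however the rest are matched. The correlations thus set replicate 1 apart, but cannot tell how the other libraries match. The block follows the labels' numbers. Blocked values stand beside the results they change, while the main test has no block. No 2 libraries of the same group agreed within sampling noise.

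The members and lists were chosen with earlier results of these data known. The rule for named genes took every member, up to 4 genes of each list that passed the test, by smallest p, the gene most like each tested member by Pearson r, and genes that overlap a member. Some genes that this rule took are not reported here. Other listed genes were named outside this rule.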

Additional observations from a re-analysis of the deposited data

How the results depend on the processing

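The 9 tested members together gave 144 values under 16 alternatives, of which 143 were below 0. The exception was SPRED1, which ranged between −0.29 and 0.025 over the fits that left out 1 library and was above 0 without Vector replicate 1. The 144 values are not separate results. Limma with the replicate block, without the filter and on protein-coding genes alone gave each tested member the fold change of the main fit. These settings cannot move a fold change, so their signs were fixed. The other alternatives draw on the same libraries. The count of values below 0 is thus a description. Limma called 58 genes higher and 97 lower, and of the members 3 lower. With the replicate block limma called 2439 higher and 2578 lower and 8 members, edgeR with the replicate block called 3179, 2879 and 9 members, and replicates 2 and 3 alone gave 2416, 2447 and 8 members. Without the filter limma called 11 and 20 genes and 2 members. edgeR with no filter on low counts called 138 and 227 genes, and DESeq2 called 313 and 418, with 3 members each. Leaving out each library in turn gave 1 to 73 genes higher, 4 to 97 lower and 0 to 3 members lower. No member was called higher under any of these alternatives. SPRY1, below the filter, did not pass limma without it (−0.48, adjusted p = 0.192). A fit on 5 libraries has fewer samples for the spread, and what else sets the lost calls was not tested.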
